A study of Mus musculus with 20 samples.

Results

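Loop of Henle cells of the mouse kidney, given the cluster name LOH by the authors, were followed through control kidneys and kidneys after ischemia-reperfusion injury (IRI), in which blood flow is stopped and then restored. The members were all cells named LOH in the authors' first annotation, 17003 of 113579 cells (14.97%), which made LOH the cluster with rank 2 by size among 18. Kidneys of 6 mice labelled control were compared with kidneys of mice in which both renal pedicles had been clamped for 23 min (IRI short) or 30 min (IRI long), and which were killed 1, 3 or 14 d later. Each ischemia time and day had 2 libraries, and the clamped mice were 10 to 12 weeks old. In the inhibitor experiment, 1 library came from a mouse with IRI long at 14 d treated with VX765 (VX-765, a caspase-1 inhibitor, 100 mg/kg) and 1 from a mouse with IRI long at 14 d treated with Liproxstatin (an inhibitor of ferroptosis, 10 mg/kg). Both agents were injected 30 min before clamping and then daily. All mice were male C57BL/6 animals, and their kidneys were perfused and enzymatically dissociated before single-cell RNA-seq, so a library holds the cells that came through dissociation.

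The loop of Henle lies between the proximal tubule (PT) and the distal convoluted tubule (DCT). Its thick ascending limb takes up sodium, potassium and chloride through the cotransporter NKCC2, encoded by Slc12a1, the target of loop diuretics, and secretes uromodulin, encoded by Umod and the most abundant protein of normal urine. This segment lets no water follow the salt and so dilutes the tubular fluid and builds the osmotic gradient of the medulla. Its outer medullary part works at low oxygen tension, next to the straight S3 part of the proximal tubule (PST). Downstream of the DCT come the connecting tubule (CNT) and the collecting duct with its principal (PC) and intercalated (IC) cells. Slc12a1 and Umod could not be used to check the name LOH, because gene counts were not analysed here. The name is therefore the authors' own, and cell numbers, second names and positions on the UMAP, a map that sets cells with alike profiles side by side, are what is described.

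Libraries held 2064 to 14320 cells each. IRI short libraries gave 8191 of the LOH cells (48.2%), control libraries 5774 (34.0%) and IRI long libraries 3038 (17.9%). Counting all clusters, IRI short libraries held 40630 cells, control libraries 37872 and IRI long libraries 35077. A technical difference between libraries, seen in their cell barcodes, bears on each comparison with control. In 5 of the 6 control libraries (Scl and norm1 to norm4) the barcodes shared between pairs of libraries fitted a set of 600626 to 1023915 barcodes. In the sixth (norm5), in the 12 IRI libraries and in both inhibitor libraries they fitted a larger set, of 1889879 to 13404906. LOH cells of different libraries shared 32 barcodes in all, 9 between libraries of the smaller set and 23 between libraries of the larger set. Control and IRI libraries of the larger set can be compared through norm5 alone, and beyond it barcode set and injury cannot be told apart. The main values against control are therefore given also against norm5 alone or with a term for the barcode set. Values without norm5 are given too, but they set controls of the smaller set against IRI libraries of the larger set. In them barcode set and injury cannot be told apart. The other values against control, among them those from the second annotation, were not separated from the barcode set.

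The first question was how the fraction of LOH cells among all cells changed with ischemia time and day. IRI long libraries had lower LOH fractions than control and IRI short libraries, and within IRI long the difference from control passed the test at 3 d and 14 d and not at 1 d. In IRI short the fraction over all days did not differ from control by the test on the logit scale. Among the control libraries, LOH cells were 10.1% of cells in Scl, 16.5% in norm1, 10.3% in norm2, 18.1% in norm3, 18.4% in norm4 and 27.5% in norm5. The library norm5 was the highest control and the only 1 in which LOH was the largest cluster. At 1 d after IRI short the fractions were 27.0 and 29.7%, at 3 d 11.2% (IRF11) and 9.88% (IRF3), and at 14 d 16.3% (IRF10) and 11.9% (IRF8). These overlapped the control range, with 1 library at 3 d just below it and 1 at 1 d above it. At 1 d after IRI long the fractions were 9.37% (IRF1) and 21.3% (IRF5), at 3 d 4.22% (IRF4) and 4.36% (IRF7), and at 14 d 2.72% (IRF12) and 4.27% (IRF9). In IRI long, 5 of the 6 libraries lay below each control and each IRI short library, and IRF5 lay within both ranges.

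**Figure D1:**
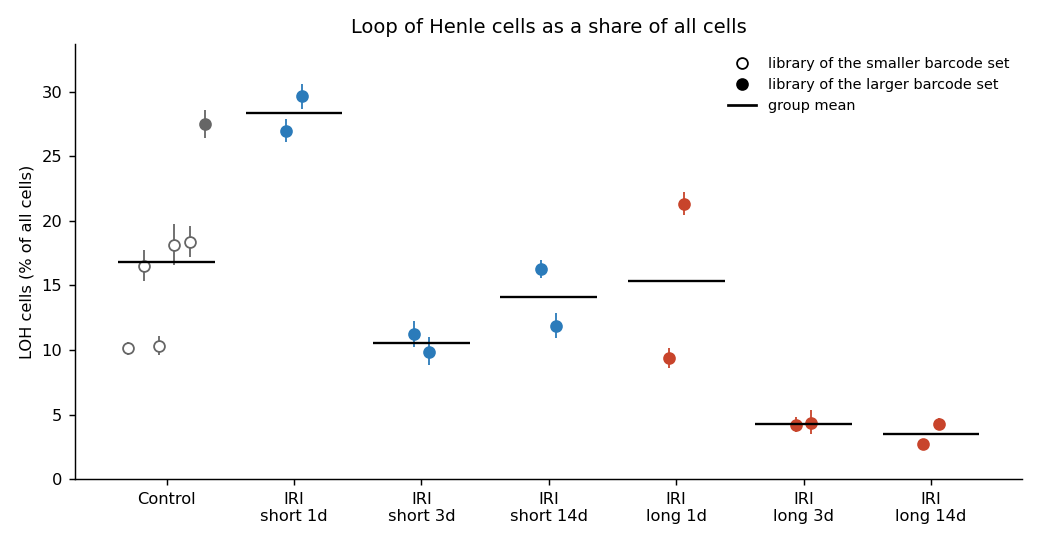
LOH cells in percent of all cells (vertical axis) in each of 18 libraries, by group (horizontal axis), with exact 95% binomial (Clopper-Pearson) intervals as vertical lines and group means as horizontal lines. Open circles are libraries of the smaller barcode set and filled circles those of the larger set. The 4 IRI long libraries at 3 d and 14 d lie between 2.72 and 4.36%, below all other libraries.

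Mean fractions were 16.8% ± 6.40 (SD, n = 6) in control, 17.7% ± 8.58 (n = 6) in IRI short and 7.71% ± 7.04 (n = 6) in IRI long. The fractions were compared with limma on the logit scale, the natural logarithm of the share over its remainder, with libraries as replicates and adjustment over the 18 clusters. On this scale IRI long was below control by a difference of −1.09 (SE 0.25, adjusted p = 0.000683), in a comparison in which 83.3% of the clusters passed the threshold. IRI long was below IRI short by −1.11 (SE 0.25, adjusted p = 0.00339), where 27.8% of the clusters passed. IRI short and control differed by 0.03 (SE 0.25, adjusted p = 0.920), where 66.7% passed. With the barcode set as a term, the difference from control was −1.77 in IRI long (adjusted p = 0.00161) and −0.66 in IRI short (adjusted p = 0.197). Taken relative to the mean of all clusters (centred log-ratio), IRI short was below control by −1.09 (adjusted p = 0.000142). This changes the reference as well as the scale. On the logit scale 9 clusters were above control in IRI short by the test and 3 below, with the largest rises in Granul_2 (5.315) and Granul_1 (4.96). Among tubule cells alone LOH was above control by 1.04. Whether and in which direction IRI short differed thus depended on the reference and the scale. By day the centred log-ratio gave −0.52 at 1 d (adjusted p = 0.128), −1.68 at 3 d (adjusted p = 8.1e-05) and −1.06 at 14 d (adjusted p = 0.00509). In percent of all cells on the logit scale, the other segments also differed from control in IRI long. The differences were −2.05 for PT S1, −2.09 for PT S3, −1.31 for DCT, −0.77 for PC and −2.56 for IC. On this scale in IRI short, PT S1 (−1.71), PT S3 (−1.78) and IC (−1.67) were below control by the test. DCT (−0.22) and PC (0.09), like LOH on the logit scale, did not pass it.

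By day, the LOH fraction was highest at 1 d after IRI short and lowest at 14 d after IRI long. Against control, the differences in IRI short were 0.73 at 1 d (SE 0.36, adjusted p = 0.0794), −0.48 at 3 d (adjusted p = 0.205) and −0.17 at 14 d (adjusted p = 0.730). In these comparisons 55.6% of the clusters passed the threshold at 1 d, 72.2% at 3 d and 55.6% at 14 d, and LOH was among those that did not. Without norm5, and so against controls of the smaller barcode set only, the difference at 1 d passed the test, at 0.86 (adjusted p = 0.0307). With the barcode set as a term it was 0.04 (adjusted p = 0.933). The same term gave −1.17 at 3 d (adjusted p = 0.0457), which passed, and −0.85 at 14 d (adjusted p = 0.176). For IRI long it gave −0.82 at 1 d (adjusted p = 0.125), −2.13 at 3 d (adjusted p = 0.000837) and −2.37 at 14 d (adjusted p = 0.000894). In IRI long the differences were −0.13 at 1 d (adjusted p = 0.759), −1.45 at 3 d (SE 0.36, adjusted p = 0.00112) and −1.69 at 14 d (SE 0.36, adjusted p = 0.000335). There 61.1% of the clusters passed at 1 d, 88.9% at 3 d and 72.2% at 14 d. The lower fractions at 3 d and 14 d passed the test in each fit that left out 1 library. Neither call held among non-immune cells or among tubule cells. Among non-immune cells the differences were −0.23 at 3 d (adjusted p = 0.513) and −0.08 at 14 d (adjusted p = 0.824), and among tubule cells they were 0.41 (adjusted p = 0.378) and 0.11 (adjusted p = 0.749), or −0.40 (adjusted p = 0.744) and −0.69 (adjusted p = 0.285) with a barcode set term.

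Comparing the 2 ischemia times on the same day, LOH was lower in IRI long by −0.86 at 1 d (SE 0.44, adjusted p = 0.363), by −0.96 at 3 d (SE 0.44, adjusted p = 0.233) and by −1.52 at 14 d (SE 0.44, adjusted p = 0.0130). Of the clusters, 5.56% passed the threshold at 1 d, 0% at 3 d and 33.3% at 14 d. An unadjusted limma p under 0.05 was found for 3 clusters at 3 d, LOH among them. At 14 d the groups did not overlap, with 11.9 and 16.3% after IRI short against 2.72 and 4.27% after IRI long. This call was lost without IRF10 (difference −1.34, adjusted p = 0.166) or without IRF12 (difference −1.29, adjusted p = 0.111). It was also lost among non-immune cells (difference −0.64, adjusted p = 0.256) and among tubule cells (difference −0.60, adjusted p = 0.258). Fractions at 14 d set against those at 1 d and 3 d differed by −0.29 in IRI short (adjusted p = 0.689) and by −0.90 in IRI long (adjusted p = 0.0794), and the difference between these was −0.61 (adjusted p = 0.541). Of the clusters, 11.1%, 22.2% and 5.56% passed in these comparisons. The change in IRI long passed the test without IRF1, at −1.14 (adjusted p = 0.0338).

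A fraction of all cells also moves with the other cells of a library, and fewer LOH cells cannot be told apart from more immune cells in it. With immune clusters left out of the denominator, IRI long differed from control by 0.11 (limma, adjusted p = 0.656) and from IRI short by −0.67 (adjusted p = 0.0677), so neither call held among non-immune cells, and IRI short exceeded control by 0.78 (adjusted p = 0.00619). The second question was therefore how LOH cells stood among tubule cells alone, that is PT S1, PT S3, LOH, DCT, PC and IC together. Within this compartment LOH made up a larger share after IRI short than in control, and for IRI long the call depended on the test. Neither passed in limma with a term for the barcode set. In control LOH cells were 11.1% (Scl), 18.7% (norm1), 11.5% (norm2), 22.0% (norm3), 22.7% (norm4) and 34.4% (norm5) of tubule cells. After IRI short they were 52.2 and 54.1% at 1 d, 44.1% (IRF11) and 26.8% (IRF3) at 3 d, and 32.1% (IRF10) and 32.7% (IRF8) at 14 d. After IRI long they were 39.4% (IRF1) and 50.9% (IRF5) at 1 d, 24.5% (IRF4) and 27.7% (IRF7) at 3 d, and 16.4% (IRF12) and 25.9% (IRF9) at 14 d. All 6 IRI short libraries lay above the 5 control libraries of the smaller barcode set, and 3 of them lay above norm5. All 4 libraries at 1 d lay above each control library.

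The mean share of tubule cells was 20.1% ± 8.63 (SD, n = 6) in control, 40.3% ± 11.4 (n = 6) in IRI short and 30.8% ± 12.3 (n = 6) in IRI long. IRI short exceeded control by 20.3 percentage points (two-sided exact permutation test, p = 0.00866, adjusted p = 0.0433 over the 12 tests of 4 measures). IRI long exceeded control by 10.7 points (exact permutation p = 0.115, adjusted p = 0.197) and stayed below IRI short by −9.55 points (exact permutation within days, p = 0.0185, adjusted p = 0.0556). The smallest p these permutations can give is 0.00216 for 6 against 6 libraries and 0.00926 within days. Leaving out any 1 of Scl, norm1, norm2, norm3, norm4, IRF11 and the libraries of IRI short at 1 d put the adjusted p of IRI short against control above the threshold, up to 0.0556, with differences from 17.5 to 23.1 points over all leave-outs. The difference of IRI long from IRI short passed the test without IRF3 (adjusted p = 0.0325). Against norm5 as the only control, the mean after IRI short was higher by 5.93 points and the mean after IRI long differed by −3.63 points. By limma on the logit scale over the 6 tubule clusters, LOH exceeded control by 1.04 in IRI short (SE 0.25, adjusted p = 0.000466, 100% of the clusters past the threshold) and by 0.59 in IRI long (SE 0.25, adjusted p = 0.0431, 50%). IRI long thus passed by limma and not by the permutation test. In this limma fit all 6 tubule clusters had the same SE of 0.25. The call thus rests on a spread taken as common to shares that are not independent. Neither passed with the barcode set as a term, at 0.24 in IRI short (SE 0.43, adjusted p = 0.880) and −0.21 in IRI long (SE 0.43, adjusted p = 0.620). At 1 d the differences were 1.58 in IRI short (adjusted p = 0.000203) and 1.26 in IRI long (adjusted p = 0.00477) without the term, and 0.77 (adjusted p = 0.221) and 0.45 (adjusted p = 0.545) with it. The relation to control within the larger barcode set thus rests on 1 control library.

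Counted against the proximal tubule, there were 0.149 to 0.905 LOH cells for each PT cell in control. At 1 d there were 2.71 and 3.78 after IRI short and 1.11 and 3.16 after IRI long, at 3 d 2.43 and 0.674 after IRI short and 0.552 and 0.687 after IRI long, and at 14 d 0.928 and 0.918 after IRI short and 0.244 and 0.518 after IRI long. Each library at 1 d and IRF11 at 3 d thus lay above the control range, the IRI short libraries at 14 d lay just above it, and the other libraries lay within it. PT S1 and PT S3, whose fractions fell against control in both arms, are the denominator of this ratio.

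**Figure D2:**
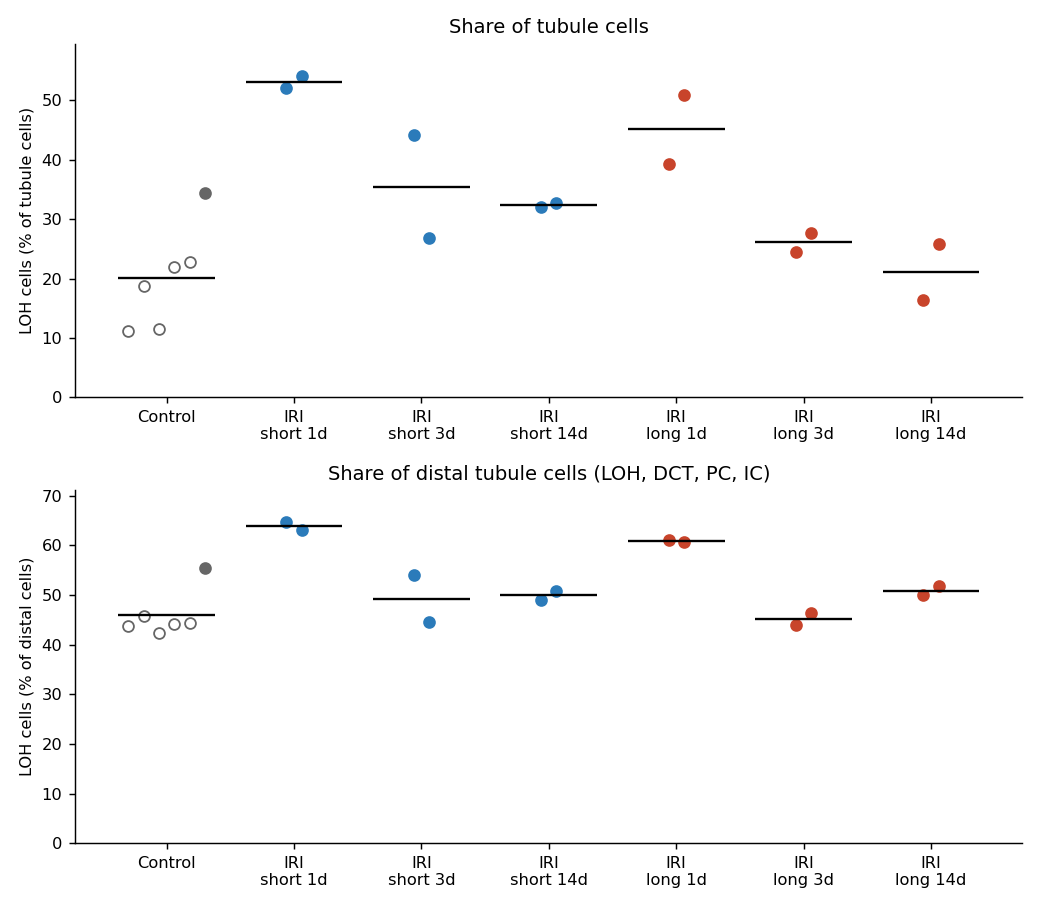
LOH cells in percent of tubule cells (upper panel) and of distal tubule cells (lower panel) in each of 18 libraries, by group, with group means as horizontal lines. Open circles are libraries of the smaller barcode set and filled circles those of the larger set. At 1 d the 4 libraries lie between 60.7 and 64.6% of distal tubule cells, above all control libraries.

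The third comparison set LOH among the distal segments alone (LOH, DCT, PC and IC), without the proximal tubule. At 1 d the LOH share of distal cells was higher than in control after both ischemia times, and at 3 d and 14 d it did not differ from control by the test in the first annotation. With a term for the barcode set, the call at 1 d held in IRI short and not in IRI long, and IRI long at 3 d was below control. In control the shares were 43.8% (Scl), 45.9% (norm1), 42.2% (norm2), 44.2% (norm3), 44.3% (norm4) and 55.5% (norm5). The 5 control libraries of the smaller barcode set thus lay within a narrow range, with norm5 apart. At 1 d the shares were 64.6 and 63.1% after IRI short and 61.1% (IRF1) and 60.7% (IRF5) after IRI long, so that IRF1 and IRF5 were alike here although their LOH fractions of all cells were 9.37 and 21.3%. At 3 d they were 53.9% (IRF11) and 44.5% (IRF3) after IRI short and 43.9% (IRF4) and 46.4% (IRF7) after IRI long. At 14 d they were 49.0% (IRF10) and 50.8% (IRF8) after IRI short and 50.0% (IRF12) and 51.8% (IRF9) after IRI long. The 8 libraries at 3 d and 14 d all lay below norm5, and all 4 at 1 d lay above it. At 3 d this order depended on the annotation, because cells called LOH in the second made up 35.3% (IRF11), 39.8% (IRF3), 37.8% (IRF4) and 38.6% (IRF7) of its distal cells, against 10.7 to 30.1% in control with norm5 the highest.

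Over all days the mean share of distal cells was 46.0% ± 4.80 (SD, n = 6) in control, 54.3% ± 8.01 (n = 6) in IRI short and 52.3% ± 7.19 (n = 6) in IRI long. The difference from control was 8.35 points in IRI short (exact permutation p = 0.0541, adjusted p = 0.130) and 6.32 points in IRI long (exact permutation p = 0.110, adjusted p = 0.197). In the second annotation the difference of IRI short from control was 15.3 points and passed (exact permutation, adjusted p = 0.0325), and that of IRI long was 14.3 points (exact permutation, adjusted p = 0.0520). IRI long differed from IRI short by −2.03 points (exact permutation p = 0.269, adjusted p = 0.403). Without norm5, and so against controls of the smaller barcode set only, the difference of IRI short passed the test, at 10.3 points (exact permutation, adjusted p = 0.0444). By limma on the logit scale, over the 4 distal clusters, both differences passed, at 0.34 in IRI short (SE 0.10, adjusted p = 0.00885, 50% of the clusters past the threshold) and 0.26 in IRI long (SE 0.10, adjusted p = 0.0457, 50%). Neither did with the barcode set as a term, at −0.04 (adjusted p = 0.738) and −0.13 (adjusted p = 0.329).

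The single days were compared in the same limma fit, which was chosen after the values had been seen. IRI short at 1 d exceeded control by 0.73 (SE 0.14, adjusted p = 0.000308) and IRI long at 1 d by 0.60 (SE 0.14, adjusted p = 0.00164), with 75% of the 4 clusters past the threshold in each. In the same fits IC fell by 2.12 and 1.85 and DCT fell by 0.56 and 0.41, while PC, at 0.39 and 0.41, did not pass. Shares within 1 compartment sum to 100, so LOH, IC and DCT did not move independently. With the barcode set as a term the difference was 0.35 in IRI short (SE 0.14, adjusted p = 0.0400) and 0.22 in IRI long (SE 0.14, adjusted p = 0.189), so the call in IRI long was lost. At 3 d LOH differed from control by 0.13 in IRI short (adjusted p = 0.494, 25% of the clusters past the threshold) and by −0.03 in IRI long (adjusted p = 0.820, 75%). At 14 d it differed by 0.16 in IRI short (adjusted p = 0.377, 25%) and by 0.20 in IRI long (adjusted p = 0.248, 50%). Without norm5 the difference at 14 d passed the test in both arms, at 0.23 in IRI short (adjusted p = 0.0421) and 0.27 in IRI long (adjusted p = 0.0200). These 2 differences are against controls of the smaller barcode set only. With the barcode set as a term LOH at 3 d after IRI long was below control by −0.41 (adjusted p = 0.0187).

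Against each neighbour in the nephron the pattern differed. For each DCT cell there were 1.44 to 2.07 LOH cells in control, 3.11 and 3.92 at 1 d after IRI short, 2.71 and 3.17 at 1 d after IRI long, 1.84 and 1.53 at 3 d after IRI short, 2.00 and 2.73 at 3 d after IRI long, and 1.24 to 1.54 over the 4 libraries at 14 d. For each PC there were 2.32 to 6.75 LOH cells in control and 3.35 to 4.86 over the 4 libraries at 1 d. At 3 d there were 3.89 (IRF11) and 2.08 (IRF3, below the control range) after IRI short. After IRI long at 3 d there were 1.59 and 1.39, the lowest of all libraries. The 4 libraries at 14 d lay between 3.755 and 6.57, within the control range. For each IC, the acid-base regulating cell of the collecting duct, there were 2.21 to 5.39 LOH cells in the control libraries of the smaller barcode set, 12.5 in norm5, 28.6 to 49.2 at 1 d and 6.73 to 25.8 at 3 d and 14 d. The ratio to DCT was thus above the control range in the 4 libraries at 1 d and in IRF7 at 3 d. At 14 d it was below that range in IRF10 (1.24), IRF12 (1.29) and IRF9 (1.35), and within it in IRF8 (1.54). The ratio to PC was within its control range at 1 d. These ratios were not tested.

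The fourth question was whether the name LOH held in the authors' second annotation, which covers 136794 cells in 20 libraries and 19 clusters and also contains each of the 17003 cells. Its names were spread over several tubule segments. Of the LOH cells, 7572 (44.5%) were again LOH, 6061 (35.6%) were "DCT1, DCT2", 1623 (9.55%) were "DCT2, CNT, CD-PC", in which CD is the collecting duct, 1150 (6.76%) were PST, 396 (2.33%) were DCT1, and the other 201 (1.18%) were spread over 11 names. The second names were also read back within the 18 libraries of the first annotation, without the inhibitor libraries. Of the 9763 cells called LOH in the second annotation of these libraries, 77.6% had been LOH in the first and 13.6% DCT. Of the 7894 cells called "DCT1, DCT2" in these libraries, 76.8% had been LOH and 20.1% DCT. This name, which is that of the DCT, thus held mostly cells of the first LOH cluster there. Of the cells called PST in these libraries, 8.90% had been LOH and 79.3% PT S3. Among the other tubule clusters, IC kept 1 leading name for 96.1% of its cells and PC for 82.5%, while the leading names of PT S3 (59.5%), PT S1 (57.9%) and DCT (43.4%) held smaller shares.

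**Figure D3:**
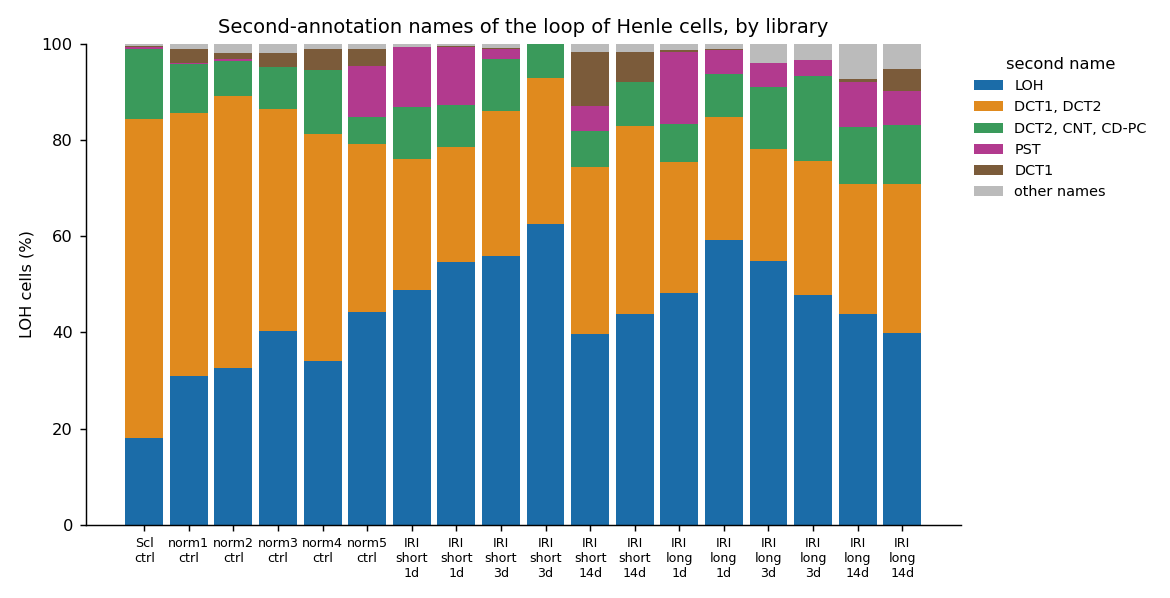
Second-annotation names of the LOH cells in percent of the LOH cells of each library (vertical axis), for 18 libraries ordered by group. Each stacked bar sums to 100%. LOH is the second name of 18 to 44.3% of the cells in control libraries and of 39.6 to 62.5% in IRI libraries, and PST is seen in norm5 and most IRI libraries.

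The share of LOH cells that kept the name LOH varied across libraries. In control it was 18% (Scl), 31.0% (norm1), 32.5% (norm2), 40.3% (norm3), 34.0% (norm4) and 44.3% (norm5). After IRI short it was 48.8 and 54.6% at 1 d, 56.0% (IRF11) and 62.5% (IRF3) at 3 d, and 39.6% (IRF10) and 43.8% (IRF8) at 14 d. After IRI long it was 48.3% (IRF1) and 59.3% (IRF5) at 1 d, 55.0% (IRF4) and 47.8% (IRF7) at 3 d, and 43.8% (IRF12) and 39.8% (IRF9) at 14 d. All 8 IRI libraries at 1 d and 3 d lay above each control library, and the 4 libraries at 14 d lay within the upper part of the control range.

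The share keeping its name was 33.4% ± 9.06 (SD, n = 6) in control, 50.9% ± 8.44 (n = 6) in IRI short and 49.0% ± 7.15 (n = 6) in IRI long. It exceeded control by 17.5 points in IRI short (exact permutation p = 0.0108, adjusted p = 0.0433) and by 15.6 points in IRI long (exact permutation p = 0.0108, adjusted p = 0.0433). IRI long and IRI short differed by −1.89 points (exact permutation within days, p = 0.509, adjusted p = 0.579). In IRI short the adjusted p rose above the threshold, to at most 0.0649, without any 1 of Scl, norm1, norm2, norm4, IRF11, IRF3 and the libraries of IRI short at 1 d, and in IRI long, to at most 0.0584, without any 1 of Scl, norm1, norm2, norm4, IRF1, IRF5, IRF4 and IRF7. Against norm5 alone the differences were 6.56 points in IRI short and 4.68 points in IRI long.

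The other names varied with the library as well. Cells called "DCT1, DCT2" were 66.3% of LOH cells in Scl, 46.1 to 56.7% in norm1 to norm4, 35.0% in norm5 and 23.3 to 39.1% in the 12 IRI libraries. The libraries of the larger barcode set, control and IRI, thus lay below those of the smaller set. The share called PST, a proximal tubule name, set norm5 apart from the other control libraries. It was 0.276% in Scl, 0.153% in norm1, 0.293% in norm2, 0% in norm3 (0 of 412 cells, compatible with at most 0.728%) and 0.134% in norm4, against 10.5% in norm5. In IRI libraries it was 12.3 and 12.1% at 1 d after IRI short and 15.03 and 5.08% at 1 d after IRI long. At 3 d it was 1.96 and 0% after IRI short and 4.95 and 3.33% after IRI long, and at 14 d 5.07 and 0% after IRI short and 9.38 and 7.12% after IRI long. The libraries at 0 were IRF3, where 0 of 293 cells allow up to 1.02%, and IRF8, where 0 of 537 cells allow up to 0.559%. These limits cover counting error only.

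Cells called "DCT2, CNT, CD-PC" were 5.63 to 14.7% of the LOH cells in control, 7.17 to 10.9% in IRI short and 8.04 to 17.8% in IRI long, with overlapping ranges. Cells called DCT1 were 0.207 to 4.29% in control. They were 0 to 0.350% in the 8 IRI libraries at 1 d and 3 d, and at 14 d 11.3 and 6.15% after IRI short and 0.521 and 4.53% after IRI long. Both IRI short libraries and 1 IRI long library (IRF9) at 14 d thus lay above the control range for DCT1.

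On the first UMAP most LOH cells lay in 1 patch, with a few scattered cells elsewhere. Of the 30 nearest cells of an LOH cell, 93.6% on average were LOH, 3.06% DCT, 1.51% PC and 0.510% PT S3. Cells called LOH, "DCT1, DCT2" or PST in the second annotation had 94.6, 95.5 and 95.0% LOH cells among their neighbours, those called "DCT2, CNT, CD-PC" 88.0% and those called DCT1 68.0%. The second names were partly sorted within the patch. Cells called PST lay at its lower end, with a median UMAP 2 of 3.66 against 6.997 for cells called LOH and 8.12 for those called "DCT1, DCT2". Cells with the DCT1 and "DCT2, CNT, CD-PC" names lay at its left edge, with median UMAP 1 of 1.84 and 2.06 against 3.70 for cells called LOH. Only 51.4% of the neighbours of a cell called LOH in both annotations, and 48.5% of those of a cell called "DCT1, DCT2", had the same second name.

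On the second UMAP the same cells lay in separate places. There 99.6% of the neighbours of a cell called LOH in both annotations shared its second name, as did 94.9% for "DCT1, DCT2", 86.5% for "DCT2, CNT, CD-PC", 94.3% for PST and 81.5% for DCT1. The median UMAP 2 was 7.86 for LOH and −1.64 for "DCT1, DCT2". Of the neighbours there, 87.2% for LOH and 88.5% for "DCT1, DCT2" had been LOH in the first annotation, against 41.5% for PST and 11.3% for DCT1. UMAP distances have no unit. The first names and the first map come from the same integration, and the second names and the second map from the same annotation, so these shares are descriptions.

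**Figure D4:**
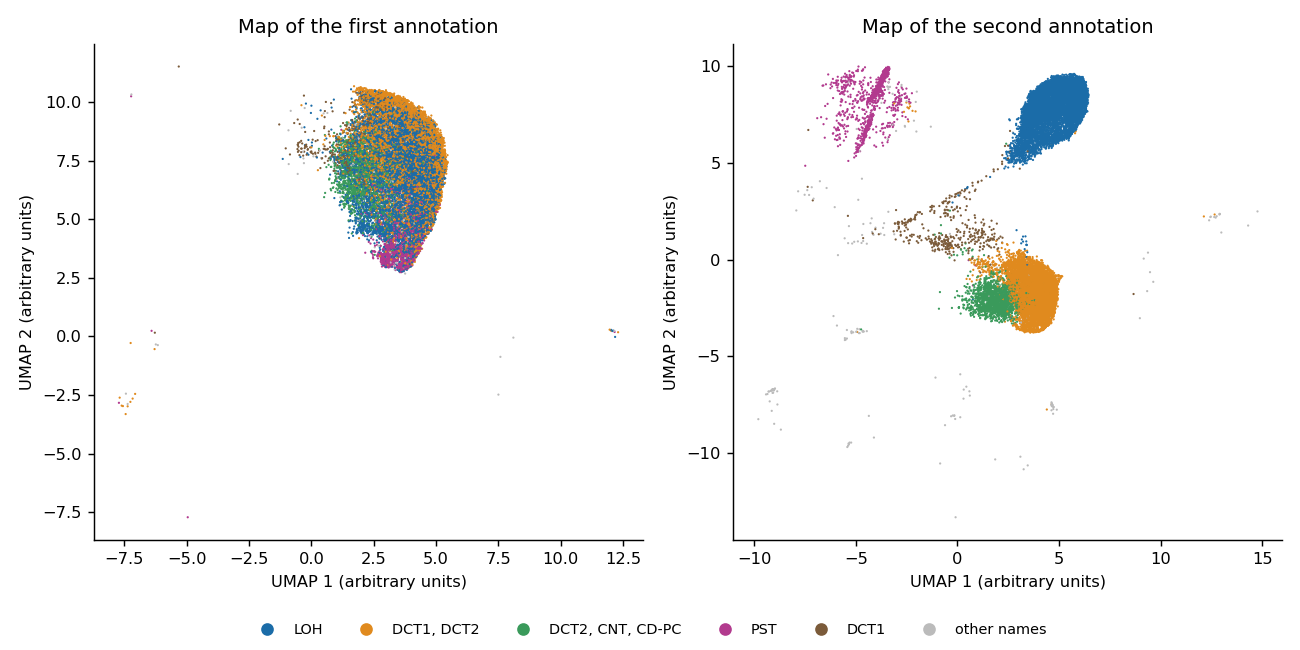
Positions of the 17003 LOH cells on the UMAP of the first annotation (left) and of the second (right), both axes in arbitrary units, 1 point for each cell, coloured by second name. In the left panel most cells form 1 patch with PST-named cells at its lower end, and in the right panel they lie in separate groups by second name.

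The share of LOH cells among the UMAP neighbours of LOH cells, averaged by library, was 92.9% ± 0.819 (SD, n = 6) in control, 93.4% ± 1.64 (n = 6) in IRI short and 93.0% ± 1.46 (n = 6) in IRI long. The differences were 0.474 points for IRI short against control (exact permutation, adjusted p = 0.579), 0.135 points for IRI long against control (exact permutation, adjusted p = 0.851) and −0.339 points between IRI long and IRI short (exact permutation, adjusted p = 0.579). The name LOH and this map come from the same integration, so a high share in each group was largely set in advance. Neighbours were drawn from all libraries together, so the library values were not independent, and no conclusion is drawn from these tests. By library the values ran from 91.1 to 95.1%, and the 4 libraries at 14 d, at 91.1 to 92.1%, were below all libraries at 1 d, at 93.6 to 95.1%, which was not tested.

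Since the 2 annotations drew the border between loop and DCT in different places, the fraction was also taken from the second. Cells called LOH there differed from control by −0.50 in IRI long (limma, adjusted p = 0.115), and LOH with "DCT1, DCT2" together, a sum chosen after the data had been seen, by −1.07 (adjusted p = 0.000533). IRI long was below IRI short by −0.98 (adjusted p = 0.0150) and −1.05 (adjusted p = 0.00652) in the same fits. The difference from control thus depended on which second names were counted as loop.

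The last comparison set the inhibitor libraries, which are in the second annotation only, beside IRI long at 14 d without inhibitor. LOH here means the second name, and with 1 library for each inhibitor there is no test. The labels of the libraries without inhibitor name no vehicle, while the study describes its IRI long group in the inhibitor experiment as given vehicle. LOH cells were 5.03% of all cells with VX765 (534 of 10610 cells, exact 95% binomial interval 4.63 to 5.47%) and 1.25% with Liproxstatin (157 of 12605 cells, 1.06 to 1.46%). In the IRI long libraries at 14 d without inhibitor they were 1.73% (IRF12, 1.44 to 2.06%) and 2.20% (IRF9, 1.87 to 2.56%), and in control 2.60 to 14.2%. The VX765 library thus lay above both libraries without inhibitor and within the control range, and the Liproxstatin library lay below both. Cells called "DCT1, DCT2" were 6.34% with VX765, 3.13% with Liproxstatin, 1.67 and 2.17% without inhibitor and 8.08 to 13.2% in control.

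Among distal tubule cells of the second annotation, LOH was 22.9% (21.2 to 24.7%) with VX765 and 13.5% (11.6 to 15.6%) with Liproxstatin, against 19.0 and 23.5% without inhibitor and 10.7 to 30.1% in control. "DCT1, DCT2" was 28.9% with VX765 and 33.9% with Liproxstatin, against 18.4 and 23.2% without inhibitor and 25.9 to 35.2% in control. Among all tubule cells LOH was 6.23% with VX765 and 1.36% with Liproxstatin, against 12.2 and 10.7% without inhibitor and 2.86 to 17.3% in control. The higher fraction of all cells with VX765 was thus not seen as a higher share of tubule cells. The intervals cover counting error and not the spread between mice.

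**Figure D5:**
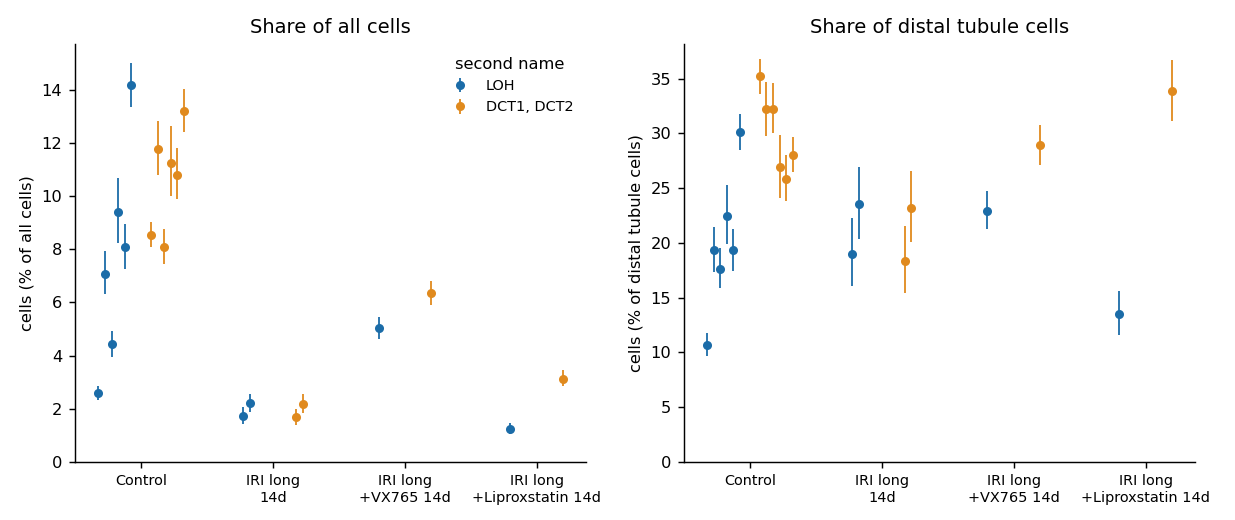
Cells called LOH and "DCT1, DCT2" in the second annotation, in percent of all cells (left) and of distal tubule cells (right), in 6 control, 2 IRI long 14d and 2 inhibitor libraries, with exact 95% binomial intervals. LOH was 5.03% of all cells with VX765 and 1.25% with Liproxstatin, against 1.73 and 2.20% without inhibitor.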

How the data were processed

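Each cell has, in the deposited tables, the name of its cluster, its treatment group and day, and UMAP coordinates, a score without unit that the authors computed. According to the methods, the authors prepared 10X 3′ libraries, aligned reads with Cell Ranger to mm10 (GRCm38), filtered cells with Seurat, removed doublets, integrated libraries with LIGER and named clusters by hand, without ambient RNA correction. Clustering and naming used all libraries jointly, so a shift in profile can move a cell between names. How the second annotation was named is not given in the sources used here.

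A library was the part of the cell name that its cells share. Its group came from the treatment labels of its cells, and each library was taken as 1 mouse. P-values measure the spread between these libraries. The members and lists were chosen with earlier results of these data known. Named clusters were the tubule clusters and second names with at least 1% of LOH cells.

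Shares of all cells were compared with limma 3.58.1 (R 4.3.3) after adding 0.5 cells and taking logits, with 7 group means and Benjamini-Hochberg adjustment (18 clusters, threshold 0.05). This limma fit was tested on simulated data, and the outcome is not given here. For other shares, two-sided exact permutation tests ran over 924 regroupings, or 216 within days, adjusted over 12 tests. Intervals are exact binomial (Clopper-Pearson, 95%), and the limit for a count of 0 is 3 counts. Neighbours were the 30 nearest cells in the UMAP (scipy 1.17.1). Inhibitor libraries were described without tests. Alternatives were other scales, denominators, the second annotation, the barcode set and leaving out each library.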

Additional observations from a re-analysis of the deposited data

Results flagged for a closer look

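The LOH fraction of all cells in IRF5, an IRI long library at 1 d, was 21.3%, apart from the other 5 IRI long libraries at 2.72 to 9.37% by Dixon's test. IRI long holds 3 days, and the other library at 1 d, IRF1, was the next highest. The share of LOH among distal tubule cells in the control library norm5 was 55.5%, apart from 42.2 to 45.9% in the other 5 control libraries, and norm5 is the only control library of the larger barcode set. Over the 15 groups of values tested, chance alone gives about 1 such value in 20 groups.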

How the results depend on the processing

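Of 210 values under alternatives other than leaving out a library, 147 kept the direction and the side of the threshold (or moved by less than the replicate spread). Of the others, 28 turned in direction, 15 came to pass the threshold, 11 no longer passed it and 9 values without a test moved. Values without a test counted as turned only where the main difference had passed, so the 9 include differences from norm5 alone that turned in sign. Inhibitor values counted as moved where they lay outside the binomial interval of the percent of all cells, and as kept where they lay inside it. Thinning each library to the size of the smallest, a filter on small clusters and 15 or 60 neighbours changed no call. Cell numbers limit the precision most in IRF7, with 90 LOH cells. No paired analysis was possible because the library names do not carry the replicate numbers of the labels. The name LOH is the only loop name of the second annotation, so pooling loop names there is the same as the leading name. Why the values below moved was not tested.

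The LOH fraction, by limma on the logit scale unless stated, moved with the denominator and the scale. Among non-immune cells, IRI short against control was 0.78 over all days and 1.36, 0.43 and 0.56 at 1, 3 and 14 d, and IRI long against control was 0.11 over all days and 0.65, −0.23 and −0.079 on these days, with none of the IRI long values past the threshold. IRI long against IRI short was −0.67 over all days and −0.64 at 14 d, neither past the threshold, and the difference between the arms in 14 d against earlier days was 0.047. Among tubule cells, IRI short against control was 1.04 over all days and 1.58, 0.83 and 0.72 at 1, 3 and 14 d, IRI long against control was 0.59 over all days and 1.26, 0.41 and 0.11 on these days, and IRI long against IRI short was −0.45 over all days and −0.60 at 14 d, neither past the threshold. As a centred log-ratio, IRI short against control was −1.09 over all days and −0.52, −1.68 and −1.06 at 1, 3 and 14 d (past the threshold except at 1 d), IRI long against control at 1 d was −1.10 and passed, and 14 d against earlier days in IRI short was 0.043. On the arcsine square root scale IRI short at 1 d passed, at 0.14. With the barcode set as a term IRI short against control was −0.66 over all days and −1.17 at 3 d, the latter past the threshold.

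With the second annotation, IRI long against control was −0.50 over all days, 0.45 at 1 d and −0.66 at 3 d, IRI short against control was 1.16 at 1 d, 0.23 by 3 d and 0.057 by 14 d, and IRI long against IRI short at 14 d was −1.34. With LOH and "DCT1, DCT2" together, an alternative added after seeing the data, IRI short against control was −0.028. The share of distal cells in IRI short exceeded control by 15.3 points in the second annotation and passed the test, and that in IRI long by 14.3 points without passing it (exact permutation, adjusted p = 0.0520).

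With norm5 as the only control, the share of tubule cells differed by 5.93 points in IRI short and −3.63 in IRI long, the share of distal cells by −1.16 and −3.20, and the share keeping the name LOH by 6.56 and 4.68. By limma on the logit scale, also added after seeing the data, IRI long against control was 0.59 for the share of tubule cells and 0.26 for the share of distal cells, and IRI short against control was 0.34 for distal cells. All 3 passed (adjusted p = 0.0431, 0.0457 and 0.00885), which the permutation tests did not. With the barcode set as a term these were −0.21, −0.13 and −0.042 (adjusted p = 0.620, 0.329 and 0.738), and the share of tubule cells in IRI short was 0.24 (adjusted p = 0.880), so for these shares no call against control over all days was left by limma. The same term gave for the share of distal cells −0.25 (3 d) and −0.22 (14 d) for IRI short and 0.22 (1 d), −0.41 (3 d) and −0.19 (14 d) for IRI long. The UMAP neighbour share differed from control by −0.18 points in IRI short and −1.05 in IRI long on the second map, and by −1.88 in IRI long with neighbours within the library.

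Leaving out 1 library at a time gave differences of the LOH fraction, on the logit scale, from −0.080 to 0.16 for IRI short against control. The sign turned without Scl, norm2 or IRF10. IRI long against IRI short at 14 d ran from −1.75 to −1.29, and 14 d against earlier days in IRI long from −1.14 to −0.66. Against control, IRI short ran from 0.62 to 0.86 at 1 d and from −0.35 to 0.017 at 14 d, and IRI long at 1 d from −0.61 to 0.35. The share of tubule cells ran from 17.5 to 23.1 points for IRI short against control and from −13.6 to −6.67 for IRI long against IRI short. The share of distal cells ran from 6.30 to 10.3 points for IRI short against control and from −4.00 to 0.022 for IRI long against IRI short. By day on the logit scale it ran for IRI short from −0.058 to 0.32 (3 d) and 0.12 to 0.23 (14 d), and for IRI long from −0.083 to 0.044 (3 d) and 0.16 to 0.27 (14 d). The share keeping the name LOH ran from 14.4 to 19.8 points in IRI short and 12.6 to 17.8 in IRI long against control, and from −4.14 to 0.44 between the arms. The neighbour share ran from −0.26 to 0.52 points for IRI long against control and from −0.80 to 0.041 for IRI long against IRI short.

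Library sizes and 2 libraries for each day limit what can be seen, and each comparison with control within the larger barcode set rests on norm5. LOH could not be checked against gene counts, and cells that did not survive dissociation are not in these shares.

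For VX765, LOH was 6.23% of tubule cells and 22.9% of distal cells, and for Liproxstatin 13.5% of distal cells, in place of 5.03 and 1.25% of all cells.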
